A study of Homo sapiens with 6 samples.

Results

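The genes described here are 36 that encode endoplasmic reticulum (ER) chaperones, folding enzymes and parts of the unfolded protein response, chosen by symbol from 35615 rows of the deposited count table. All 36 were found, and all passed the filter on low counts that left 14543 genes to test. The libraries came from K562 cells, a human erythroleukaemia line from chronic myeloid leukaemia that carries the BCR-ABL1 kinase fusion. Per the labels, 3 cultures received hsa-miR-92a-1-5p as a mimic by nucleofection (libraries called miR92a) and 3 a negative-control mimic (called scramble), at 500 pmol each. Every culture, control cultures included, also received the ABL1 inhibitor imatinib at 1 µM, added 4 h after the mimic and left for 24 h before RNA extraction. Cultures without imatinib were not analysed here, so each difference below is between the 2 mimics in drug-treated cells of 1 line.

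Proteins that enter the secretory pathway cross the ER membrane through the SEC61 channel and fold in the lumen. There HSP70- and HSP90-type chaperones, protein disulfide isomerases and the lectins calnexin and calreticulin hold and check them. When unfolded proteins accumulate, the membrane sensors IRE1 (the product of ERN1), ATF6 and PERK start the unfolded protein response. IRE1 splices XBP1 mRNA, ATF6 is cut to release a transcription factor, and both outputs raise chaperone genes and genes of ER-associated degradation (ERAD), which sends misfolded proteins to the proteasome.

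The mimic is the less abundant strand of the miR-92a-1 hairpin (chr13:91351324-91351346, plus strand, GRCh38.p14). Its mature sequence from RefSeq is shown with the seed, bases 2 to 8, in capitals, because the target sites below pair with it.
hsa-miR-92a-1-5p: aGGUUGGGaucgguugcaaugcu

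Sites for this seed were sought in the longest GENCODE v29 3′ UTR of each gene as CCCAACC (7mer-m8), CCAACCA (7mer-A1) or the 8mer CCCAACCA. Of the 36 genes, 5 (13.9%) held a 7mer and none an 8mer, against 16.9% of 12888 tested genes whose 3′ UTR is annotated. The 5 were TXNDC5, UGGT1, DERL1, DERL2 and ERN1. The site of TXNDC5 and the 7mer-m8 of UGGT1 are printed because these genes were called lower with the replicate number as a block in the fit. Without that block neither passed the main edgeR test (values below). The sites of DERL2 and ERN1, which were not called, are printed with them. Capitals mark the seed match, on the strand of the transcript.
TXNDC5, chr6:7881649-7881677, minus strand: ttttaaaaaaaCCCAACCtcctagagaag
UGGT1, chr2:128190503-128190531, plus strand: cttattccccaCCCAACCgcagtgaactt
DERL2, chr17:5472243-5472271, minus strand: gaattttgagaCCAACCAactaaccttac
ERN1, chr17:64039157-64039185, minus strand: cttatgtcgagCCAACCAcaataaaggta
The TXNDC5 site began at base 1478 of a 3′ UTR of 1627 bases. UGGT1 held 4 matches in 5935 bases, namely the printed 7mer-m8 and 3 of the 7mer-A1 kind, 2 of which overlap. The ERN1 match lay at base 4814 of 4846. A match is a string of letters and does not show that the site is used.

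Promoters were read from RefSeq windows of 250 bases before to 50 after each annotated start, with 42 windows for 34 of the genes. The ER stress response element, to which ATF6 binds together with NF-Y, is CCAAT, then 9 bases of any kind, then CCACG. It occurred on either strand in the windows of 7 of these 34 genes (9 of 42 windows, 21.4%), against 27 of all 35116 windows (0.0769%). The 27 include these 9. The genes were chosen as parts of this response, and the difference was not tested. The shorter element ERSE-II, which is ATTGG, 1 base of any kind and CCACG, was found for 3 genes (3 windows, 7.14%), against 0.0541% of all windows. The exact matches are listed with the fixed bases in capitals. None of the 10 genes that hold them passed the test described below, which called 0.433% of all genes higher and 0.976% lower.
HSPA5, chr9:125241391-125241409: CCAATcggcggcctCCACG
HSP90B1, chr12:103930216-103930234: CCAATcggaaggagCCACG
HSP90B1, chr12:103930321-103930339: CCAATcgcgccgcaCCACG
CRELD2, chr22:49918554-49918572: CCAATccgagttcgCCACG
PDIA6, chr2:10812853-10812871: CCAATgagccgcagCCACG
CALR, chr19:12938384-12938402: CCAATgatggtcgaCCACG
CANX, chr5:179698778-179698796: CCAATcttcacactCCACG
XBP1, chr22:28800603-28800621: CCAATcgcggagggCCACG
HYOU1, chr11:119057274-119057284 (ERSE-II): ATTGGACCACG
SDF2L1, chr22:21642114-21642124 (ERSE-II): ATTGGTCCACG
HERPUD1, chr16:56932025-56932035 (ERSE-II): ATTGGGCCACG
HYOU1 held a second copy of the same ERSE-II letters at chr11:119057380-119057390. The XBP1-type core TGACGTGG was present for HYOU1 and TXNDC5, in 4.76% of the windows against 0.729% of all. ERSE holds a CCAAT box and CCACG within it. CCAAT alone was in 76.2% of the windows, against 34.6% of all, and CCACG alone in 66.7% against 38.1%. The windows of PDIA4, CALU, RCN1 and UGGT1 held neither ERSE, ERSE-II nor TGACGTGG.

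Library totals lay between 24751862 and 25982085 counts in 5 libraries, whereas miR92a 1 held 704448, with the median of the others 36 times as large. The 36 genes had a median of 48 counts in miR92a 1, where counting error alone is 14.4% of the value, and of 1560 to 1912 counts in the other libraries, where it is 2.29% to 2.53%. In miR92a 1, DNAJB9, MANF and HERPUD1 had fewer than 10 counts (6, 3 and 8). The K562 label was checked against markers: GATA1 (171 to 222 CPM), KLF1 and the globin HBG2 (2470 to 4080 CPM) were abundant in every library. The cell type given is myeloblast, but MPO was at 0 in all libraries and ELANE at 0 in 5 of 6, while AZU1, PRTN3 and CEBPE were detected in all but miR92a 1, at up to 4.82, 1.46 and 2.99 CPM. Of the plasma cell markers, from a cell type with a very large ER, JCHAIN, MZB1 and IRF4 were at or below 0.275 CPM and SDC1 was at 2.72 to 5.32 CPM. RNA was taken from whole cultures, so less RNA per cell and fewer cells that hold it cannot be told apart.

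The comparison asked which of these genes differed between miR92a and scramble. Only 2 of the 36 passed an adjusted p of 0.05 (edgeR's quasi-likelihood test with Benjamini-Hochberg adjustment, 3 libraries per group), the disulfide isomerase PDIA4 and the calcium-binding protein CALU, both higher. That is 5.56%, against 0.433% of all tested genes called higher. Because the genes were chosen with earlier results of these data known, the difference was not tested. None was called lower, against 0.976% of all genes, while DESeq2 called 1 lower (TXNDC5). At an unadjusted p under 0.05, edgeR had 3 of the 36 higher, against 6% of all genes, and 2 lower, against 7.51%. With the replicate number as a block in the fit, PDIA4 and CALU stayed higher and 3 genes were lower: TXNDC5, a disulfide isomerase of the thioredoxin family, RCN1, a calcium-binding protein of the ER lumen, and UGGT1, the glucosyltransferase that marks misfolded glycoproteins. These shares lay near those of all genes, with 5.56% higher against 4.57% and 8.33% lower against 6.70%. The median log2 fold change of the 36 was 0.02, against -0.012 for all tested genes. The values of miR92a and scramble libraries did not overlap for 4 genes on the higher side (11.1%, against 9.73% of all genes) and for 3 on the lower side (8.33%, against 11.5%).

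**Figure D1:**
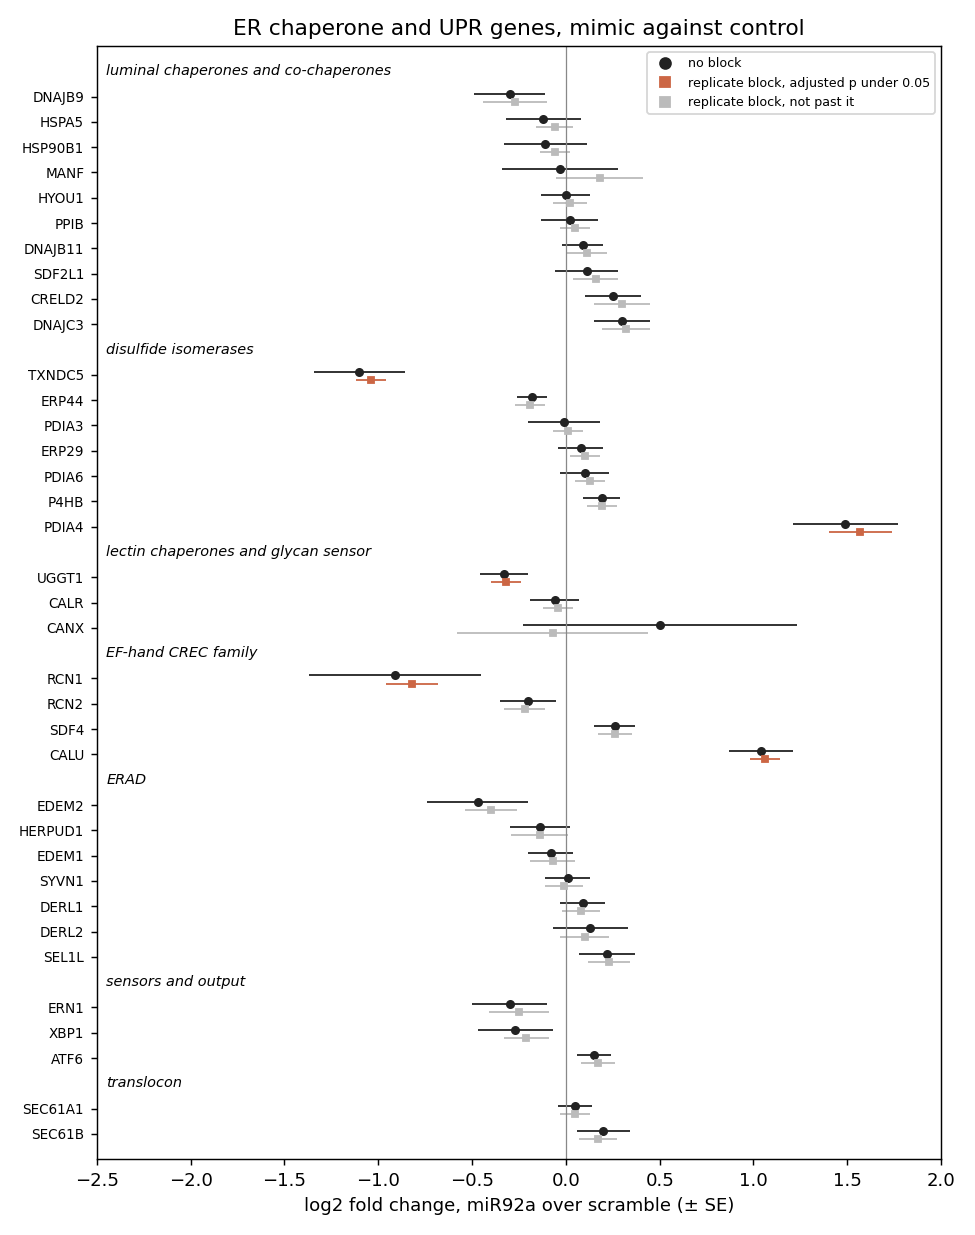
Log2 fold change of each gene (x axis, miR92a over scramble, ± SE) by role (y axis), from edgeR without the block (black circles) and with it (squares). Squares are orange for the 5 genes past the threshold with the block, PDIA4, CALU, TXNDC5, RCN1 and UGGT1; CANX has the widest bars.

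Among the disulfide isomerases, which form and rearrange the cysteine bonds of folding proteins, PDIA4 and TXNDC5 went opposite ways. PDIA4 (chr7:149003062-149028641, minus strand) had 11.1, 11.6 and 6.11 CPM (counts scaled to library size with TMM factors) in scramble 1, 2 and 3. In miR92a 1, 2 and 3 it had 39.5, 25.7 and 22.9 CPM. All 3 miR92a libraries lay above all 3 scramble libraries, although the highest of them, miR92a 1, rested on 29 counts. Mean PDIA4 was 9.58 ± 3.02 CPM in scramble and 29.3 ± 8.87 CPM in miR92a (± SD over 3 libraries). PDIA4 rose by 1.49 ± 0.28 on the log2 scale (± SE, edgeR adjusted p = 0.046), and by 1.57 ± 0.17 with the block (adjusted p = 2e-06). Without the block the call was kept when scramble 3 was left out (adjusted p = 0.035) and lost without each of the other libraries (adjusted p up to 0.14).

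TXNDC5 (chr6:7881517-7910814, minus strand) had 361, 341 and 204 CPM in scramble 1, 2 and 3. In miR92a 1, 2 and 3 its values were 159, 163 and 107 CPM. The groups did not overlap, and replicate 3 was the lowest library of each group. Without the block its log2 fold change was -1.10 ± 0.24 and did not pass (edgeR adjusted p = 0.078). With the block TXNDC5 fell by 1.04 ± 0.08 on the log2 scale (adjusted p = 4.6e-08), and the difference within pairs of equal replicate number was -1.18, -1.06 and -0.92. Without scramble 3 it passed even with no block (adjusted p = 0.01). The table lists the readthrough transcript BLOC1S5-TXNDC5, which shares exons with TXNDC5, at 0 to 94 counts, against 117 to 9205 for TXNDC5.

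The other 5 disulfide isomerases had log2 fold changes from -0.18 (ERP44, which retains client proteins by thiol bonds) to 0.19 (P4HB, the founding member of the family). Their values per library overlapped except for ERP44, which had 119, 123 and 127 CPM in scramble and 106, 109 and 109 CPM in miR92a (adjusted p = 0.4). PDIA3, the partner of the lectin chaperones, had a log2 fold change of -0.01 ± 0.19. Per kilobase of the principal GENCODE transcript, the scale on which levels of different genes are compared here, PDIA4 was the lowest of the 7 isomerases in scramble (3.30 ± 1.04 CPM per kb). The highest was P4HB (150 ± 14.2). In miR92a libraries PDIA4 stood at 10.1 ± 3.06 CPM per kb, still below ERP44 at 22.2 ± 0.383. TXNDC5 went from 102 ± 28.8 to 48.2 ± 10.5 CPM per kb.

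The CREC family of EF-hand proteins, low-affinity calcium binders of the secretory pathway, was also split. CALU (chr7:128739292-128771807, plus strand), which encodes calumenin, had 102, 107 and 74.1 CPM in scramble 1, 2 and 3. It had 214, 216 and 160 CPM in miR92a 1, 2 and 3. Even the lowest miR92a library was above the highest scramble library. The means were 94.5 ± 17.8 and 196 ± 31.7 CPM, and CALU rose by 1.04 ± 0.17 on the log2 scale (edgeR adjusted p = 0.027). The pairs differed by 1.06, 1.01 and 1.10. The call without the block was kept without scramble 3 or miR92a 3 and lost without each of the other 4 libraries (adjusted p up to 0.13).

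RCN1 (chr11:32090904-32105755, plus strand) encodes reticulocalbin 1. It had 42.8, 42.0 and 16.9 CPM in scramble 1, 2 and 3 and 17.7, 26.8 and 9.30 CPM in miR92a 1, 2 and 3. The groups overlapped because scramble 3 was below 2 of the miR92a libraries, while within each pair the miR92a library was lower (-1.25, -0.64 and -0.83). The log2 fold change was -0.91 ± 0.46 without the block (edgeR adjusted p = 0.45). With the block RCN1 fell by 0.82 ± 0.14 on the log2 scale (adjusted p = 4.7e-04). The annotated pseudogene RCN1P2 had 1 to 55 counts, so reads of RCN1 (13 to 1090 counts) can be shared with it. RCN2 and SDF4 had log2 fold changes of -0.20 ± 0.15 and 0.26 ± 0.11, and SDF4, which encodes the Golgi protein Cab45, was 1 of the 4 genes whose miR92a values all lay above scramble.

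**Figure D2:**
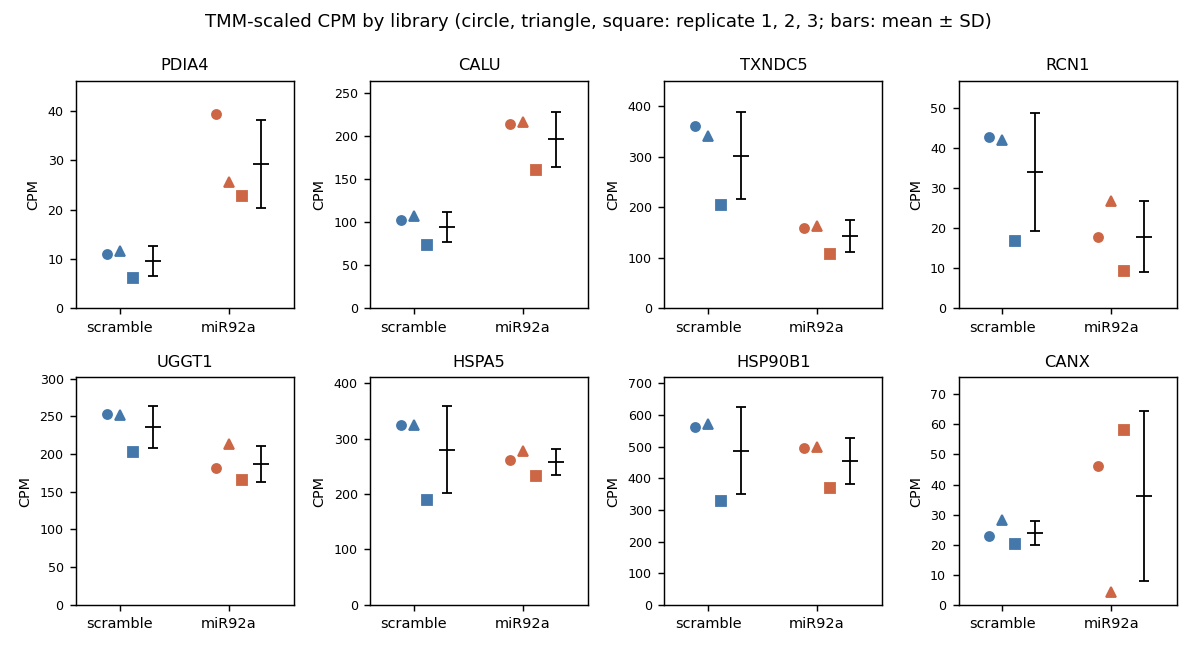
TMM-scaled CPM (y axis, from 0) of 8 genes in each scramble (blue) and miR92a (orange) library, with replicates 1, 2 and 3 as circle, triangle and square and the mean ± SD as a bar. PDIA4 and CALU lie wholly higher and TXNDC5 wholly lower in miR92a; HSPA5 and HSP90B1 are lowest in scramble 3, and CANX ranges from 4.24 to 58.2 CPM within miR92a.

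The glycoprotein quality-control genes gave 1 call, and only with the block, which called 4.57% of all genes higher and 6.70% lower. UGGT1 (chr2:128091200-128195677, plus strand) had 253, 252 and 203 CPM in scramble 1, 2 and 3 and 181, 213 and 166 CPM in miR92a 1, 2 and 3. Each miR92a library was below its numbered partner, though miR92a 2 was above scramble 3. Its log2 fold change was -0.33 ± 0.13 without the block (edgeR adjusted p = 0.31). With the block UGGT1 fell by 0.32 ± 0.08 on the log2 scale (adjusted p = 0.014), and with a pair left out its adjusted p reached 0.13. The lectin chaperone gene CALR, the most abundant of the 36 per kilobase (301 ± 48.6 CPM per kb in scramble), had a log2 fold change of -0.06 ± 0.13.

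CANX, which encodes the membrane-bound lectin calnexin, varied more between replicates than any of the other 35 genes, by its SE. It had 23.0, 28.3 and 20.2 CPM in scramble 1, 2 and 3, and 46.3, 4.24 and 58.2 CPM in miR92a 1, 2 and 3. In miR92a 2 this was 111 counts at full depth, against 1451 in miR92a 3. The pairs differed by 0.99, -2.61 and 1.5, and the log2 fold change was 0.50 ± 0.73. With the block CANX was called higher without pair 2 and lower without pair 3, so no direction can be given. Per kilobase CANX ranked 32 of 36 in scramble (5.61 ± 0.965 CPM per kb). How transcripts were assigned to gene symbols is not given in the sources used, and its part in the level and spread of CANX was not tested.

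The luminal chaperones and their co-factors held no call in either fit. For so few genes this is near the shares of all tested genes. Those were 0.433% higher and 0.976% lower without the block, and 4.57% and 6.70% with it. HSPA5, which encodes BiP, the main HSP70 of the ER and the usual marker of ER stress, had 325, 325 and 190 CPM in scramble 1, 2 and 3. It had 261, 278 and 232 CPM in miR92a 1, 2 and 3. The miR92a values all lay inside the range of the scramble values. The log2 fold change was -0.12 ± 0.20 (edgeR adjusted p = 0.86) and the pairs differed by -0.31, -0.22 and 0.29. HSP90B1, the HSP90 of the ER, had pair differences of -0.19, -0.20 and 0.18 and a log2 fold change of -0.11 ± 0.22. With the block and without replicate 3, HSPA5 was called lower (-0.25 ± 0.07, adjusted p = 0.0082), and so was HSP90B1 (adjusted p = 0.044), so these directions depended on the pair numbered 3.

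The other 8 luminal genes had log2 fold changes from -0.30 (DNAJB9, a BiP co-chaperone that restrains IRE1) to 0.30 (DNAJC3, a J-domain co-chaperone). HYOU1, a nucleotide exchange factor for BiP, was at 0.00 ± 0.13, DNAJB11 at 0.09 ± 0.11 and SDF2L1 at 0.11 ± 0.17. The prolyl isomerase gene PPIB was at 0.02 ± 0.15. CRELD2 and MANF, both small secreted proteins raised in ER stress, were at 0.25 ± 0.15 and -0.03 ± 0.31. MANF had the lowest CPM of the 36 genes in scramble (5.67). The 10 genes with an exact ERSE or ERSE-II, none of them a CREC family or translocon gene, had log2 fold changes from -0.27 (XBP1) to 0.50 (CANX), with a median of -0.03. All 5 genes called with the block were among the 24 others with a promoter window. Over all tested genes that fit called 4.57% higher and 6.70% lower, and 0 calls among 10 genes is near those shares. Without replicate 3 the blocked fit called 6 of the 36 genes lower, and 5.95% of all genes. HSPA5, HSP90B1 and CANX hold an exact element, and RCN1, TXNDC5 and UGGT1 do not. Whether the element bears on these calls was not tested.

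The sensor genes were not called in either fit. All tested genes had shares of 0.433% higher and 0.976% lower without the block, and 4.57% and 6.70% with it. ERN1 had 16.0, 17.0 and 11.4 CPM in scramble 1, 2 and 3 and 13.6, 12.8 and 10.8 CPM in miR92a 1, 2 and 3, a log2 fold change of -0.30 ± 0.20 (edgeR adjusted p = 0.6). For XBP1 the values were 45.3, 45.3 and 30.0 CPM in scramble and 32.7, 39.1 and 27.9 CPM in miR92a, a log2 fold change of -0.27 ± 0.20 (adjusted p = 0.65). XBP1 was lower in each miR92a library than in its numbered partner, but the groups overlapped. Counts per gene symbol do not separate spliced from unspliced XBP1, so IRE1 activity was not measured. ATF6 had 120, 118 and 104 CPM in scramble and 121, 130 and 126 CPM in miR92a. Its groups did not overlap, with 120 CPM the highest scramble and 121 CPM the lowest miR92a value, and its log2 fold change of 0.15 ± 0.09 did not pass (adjusted p = 0.55).

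Of the 7 ERAD genes none was called in either fit. Among all tested genes 0.433% were called higher and 0.976% lower without the block, and 4.57% and 6.70% with it. No call among 7 genes is near those shares. Their log2 fold changes ran from -0.47 ± 0.27 (EDEM2) to 0.22 ± 0.15 (SEL1L), with a median of 0.01. EDEM1 and EDEM2 trim mannose from glycoproteins bound for degradation. SYVN1, the ubiquitin ligase of the main ERAD complex, was at 0.01 ± 0.12, and its adaptor SEL1L was higher in every miR92a library than in its numbered partner by 0.16 to 0.48. DERL1 and DERL2, which encode membrane channels of the pathway, both held a seed match and had log2 fold changes of 0.09 ± 0.12 and 0.13 ± 0.20. HERPUD1, a scaffold of the ligase complex that is strongly raised in ER stress, had 18.6, 18.4 and 18.5 CPM in scramble and 10.9, 17.4 and 18 CPM in miR92a, and its lowest value rested on 8 counts. The translocon genes SEC61A1 and SEC61B were at 0.05 ± 0.09 and 0.20 ± 0.14.

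Within groups the libraries numbered 3 stood apart on these genes. In scramble, replicate 3 was the lowest library for 27 of the 36 genes (75%), against 42.7% of all tested genes. The median difference of scramble 3 from the mean of scramble 1 and 2 was -0.32 on the log2(CPM + 0.5) scale, against 0.00 for all tested genes. Scramble 1 and 2 differed from each other by a median of 0.06 in either direction. In miR92a, replicate 3 was lowest for 18 genes (50%), against 32.4% of all genes, with a median difference of -0.13. RCN1 showed the largest such drop in both groups (-1.30 and -1.19). The summed level of the 36 genes was 5056, 5143 and 3858 CPM in scramble 1, 2 and 3 and 4706, 4889 and 4323 CPM in miR92a 1, 2 and 3. The median difference between mimics was -0.05, -0.01 and 0.16 in the pairs numbered 1, 2 and 3, against -0.066, 0.002 and -0.012 for all tested genes. The labels give no batch, day or scan for the number, and its part in these results was not tested.

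**Figure D3:**
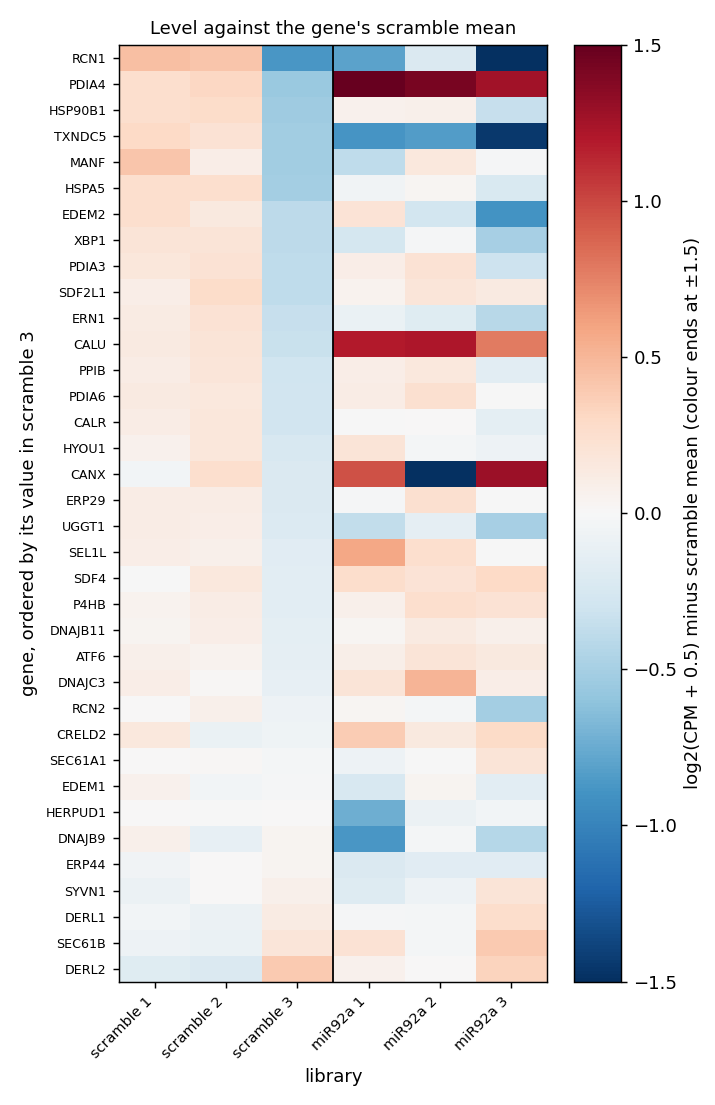
Level of each of the 36 genes (rows) in each library (columns) as log2(CPM + 0.5) minus the gene's scramble mean, with rows ordered by the value in scramble 3. Scramble 3 is below the mean for most rows, while PDIA4 and CALU (red) and TXNDC5 (blue) stand out in every miR92a column. RCN1 is blue in scramble 3 as in miR92a 1 and 3, and paler in miR92a 2. CANX is blue in miR92a 2 and red in miR92a 1 and 3.

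Beyond these genes, 163 others that act in the same compartment were listed by function, of which 162 were tested. Without the block 3 were higher and 3 lower (1.85% each, against 0.433% and 0.976% of all genes), and with the block 7 were higher (4.32%, against 4.57% of all genes) and 16 lower (9.88%, against 6.70%). Of these 23 calls with the block, 12 were kept whichever pair was left out and 11 were lost in at least 1 such fit. The calls without the block were MBTPS1, RTCB and SRPRA (higher) and CREB3L2, BFAR and STIM1 (lower). In the list of 12 sensors and their processing factors 4 passed without the block, 2 each way (16.7% each, against 0.433% and 0.976% of all genes). The related lists were chosen with earlier results of these data known. Their shares therefore cannot test whether such genes were called more often than others. CREB3L2, an ER membrane-bound transcription factor cut like ATF6, had 113, 111 and 113 CPM in scramble and 58.5, 48.2 and 49.9 CPM in miR92a. It fell by 1.15 ± 0.10 on the log2 scale (edgeR adjusted p = 0.002). BFAR, an ER-resident apoptosis regulator, fell by 0.78 ± 0.11 (adjusted p = 0.017). RTCB, the ligase that joins XBP1 exons after IRE1 cleavage, went from 55.1, 53.5 and 54.0 CPM in scramble to 78.9, 78.3 and 92.2 CPM in miR92a, a rise of 0.63 ± 0.10 (adjusted p = 0.026). MBTPS1, the site-1 protease that cuts ATF6, rose by 0.51 ± 0.09 (adjusted p = 0.038); it was named after its values were seen. With 1 library left out, BFAR lost its call in 4 of 6 fits, RTCB in 5 and MBTPS1 in all 6 (adjusted p up to 0.12, 0.14 and 0.21). With the block ATF6B, a paralogue of ATF6 (-0.37), and SEC16A, an ER exit site scaffold (-0.40), were also lower. Both lost the call without pair 2 (adjusted p = 0.41 and 0.2).

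Among 17 genes of ER calcium handling and prolyl isomerases, STIM1, the ER calcium sensor of store-operated entry, had 110, 114 and 126 CPM in scramble and 44.9, 55.5 and 59.6 CPM in miR92a. It fell by 1.07 ± 0.11 on the log2 scale (edgeR adjusted p = 0.0051). With the block 3 more of this list fell: the IP3 receptor genes ITPR1 and ITPR2 (each -0.86) and RCN3, another reticulocalbin (-1.17), with 2, 10 and 0 counts in miR92a 1. RCN3 lost its call without pair 2 or 3 (adjusted p up to 0.17). In the translocon and targeting list of 29, the signal recognition particle receptor subunit SRPRA rose by 0.76 ± 0.09 (adjusted p = 0.006). With the block SRP72 and SEC11C were also called higher, by 0.51 and 0.47. SRP72 rested on pair 3, without which it was at 0.18 (adjusted p = 0.35), and SEC11C lost its call without pair 1 or 2 (adjusted p up to 0.25). Of 22 N-glycosylation genes, STT3B, a catalytic subunit of the oligosaccharyltransferase, rose with the block (0.52 ± 0.09), while the subunit gene OSTC (-0.50 ± 0.09), ALG6 (-0.58) and MLEC (-0.42) were called lower. ALG6 lost its call with any pair left out (adjusted p up to 0.26) and MLEC without pair 2 (adjusted p = 0.08). With the block 23.5% of the calcium list were lower and 10.3% of the translocon list higher. Of the N-glycosylation list 4.55% were higher and 13.6% lower. The shares of all tested genes were 4.57% higher and 6.70% lower. Because these lists too were chosen with earlier results known, the differences were not tested.

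The remaining lists held few calls. With the block 6.67% of the PERK and ATF4 list were called each way. Lower calls made up 3.85% of the ERAD list, 4.55% of the oxidative folding list and 10.5% of the ER exit list. Over all tested genes the blocked fit called 4.57% higher and 6.70% lower, so most of these shares lay near those of all genes. In the PERK and ATF4 branch (15 genes), PERK slows translation and ATF4 drives amino acid genes. None of these passed without the block. At an unadjusted p under 0.05 in edgeR, 1 was higher and 1 lower, against 6% and 7.51% of all genes. With the block the asparagine synthetase gene ASNS rose by 0.50 ± 0.10 and PPP1R15B, a phosphatase subunit that reverses PERK's effect, fell by 0.35 ± 0.09. ASNS lost its call without pair 2 (adjusted p = 0.056) and PPP1R15B without pair 1 or 2 (adjusted p up to 0.22). Of the 26 other ERAD genes, EDEM3 alone passed with the block (-0.39). Of the 22 other oxidative folding genes tested, TXNDC16 alone did so (-0.47), and without pair 3 it was at -0.22 (adjusted p = 0.39). SEC24A (-0.62) and SAR1A (-0.36) were the 2 of 19 ER exit and retrieval genes to pass with the block, and SAR1A lost its call without pair 1 or 2 (adjusted p up to 0.092). Of the 16 related genes lower with the block, 8 held a 7mer or 8mer seed match (50%), and none of the 7 higher ones did. Of all tested genes with a 3′ UTR, 16.9% did. The median 3′ UTR was 1686 bases for the 16, 997 for the 7 and 1327 for all these genes, and longer ones have more room for a match. The share among all genes lower with the block was not counted, so whether 50% is particular to these genes was not tested. Of the 8 with a match, ATF6B, RCN3, SAR1A and SEC16A were among those that lost their call with a pair left out. STIM1 and ITPR2 each held an 8mer, and the site of STIM1 is printed beside the CREB3L2 7mer-m8 nearest its stop codon.
STIM1, chr11:4092001-4092030, plus strand: cctgcctccgtCCCAACCAtgggctgctgc
CREB3L2, chr7:137908345-137908373, minus strand: gcagcctgagtCCCAACCcacgcctgcac

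**Figure D4:**
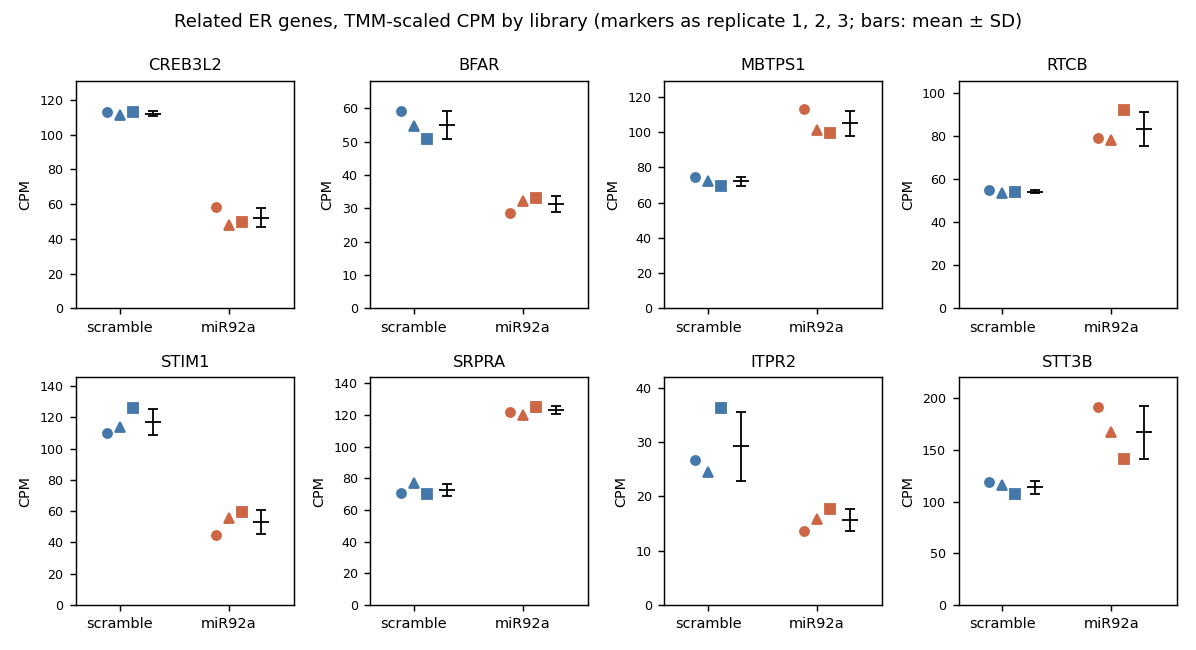
TMM-scaled CPM (y axis, from 0) of 8 related ER genes in each scramble (blue) and miR92a (orange) library, with replicates 1, 2 and 3 as circle, triangle and square and the mean ± SD as a bar. CREB3L2, BFAR, STIM1 and ITPR2 lie lower and MBTPS1, RTCB, SRPRA and STT3B higher in miR92a, with no overlap between groups.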

How the data were processed

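Total RNA of 6 K562 cultures was sequenced as read pairs and quantified by the authors with kallisto, per the labels' protocols; GRCh38 is named in the submitters' processing notes, and neither its version, the transcript annotation nor the strand is named in those sources. The deposited values are expected counts (estimated counts per gene symbol, in whole numbers, not scaled). Genes were filtered with filterByExpr, scaled by TMM and tested in edgeR 4.0.16 (R 4.3.3) by the quasi-likelihood F-test on group, with Benjamini-Hochberg adjustment over 14543 genes. SE is the log2 fold change over the square root of F, and pair differences use log2(CPM + 0.5). The table's per-sample columns were all used. Without the block, p-values measure the spread between cultures labelled as biological replicates. With the block, they measure the spread that is left after the replicate number is fitted. The code was tested on simulated data.

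The labels do not say what the replicate number marks. Deviations from group means correlated at 0.15, 0.16 and 0.42 between same-numbered libraries over all tested genes, so the blocked fit is given where it changed a call; differently numbered libraries 1 and 2 correlated at 0.10 and 0.09. Over the 4829 genes that averaged 1000 counts or more, the same-number values were 0.37, 0.48 and 0.63, and those crossing 1 and 2 were 0.52 and 0.25. Over the 36 genes they were 0.10, -0.02 and 0.52, and 0.39 and 0.47 crossed. Replicate 3 had the highest same-number value in each set. Members and lists were chosen with earlier results of these data known. Genes were named by a fixed rule: members called in either fit, HSPA5 and the sensors, then up to 3 per related list called with the block; HSP90B1, CANX, MBTPS1, ATF6B, SEC16A, ITPR2, MLEC and the genes that set a range were added after their values were seen. Alternatives were DESeq2 1.42.0, limma-voom (limma 3.58.1), other scaling and filters, the block, and libraries or pairs left out. Sequences came from GENCODE v29 (88.6% of tested symbols had a 3′ UTR) and RefSeq (GRCh38.p14), read with Python 3.11.15. Figures used matplotlib 3.10.9.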

Additional observations from a re-analysis of the deposited data

How the results depend on the processing

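Without the replicate block 2 of the 36 genes were higher and none lower. Library totals alone or a mean of at least 1 CPM left 1 higher (CALU; PDIA4 at adjusted p = 0.0618 and 0.0501), and DESeq2 or no filter added 1 lower (TXNDC5). With 1 library left out, 0 to 2 were higher and 0 to 1 lower. The replicate block gave 2 higher and 3 lower, and with 1 pair left out 2 to 3 and 2 to 6. Among related genes, called 3 higher and 3 lower, the block gave 7 and 16 (6 to 8 and 9 to 16 with a pair left out), DESeq2 7 lower, and single libraries left out 1 to 2 higher and 2 to 5 lower. Over all genes, 63 higher and 142 lower became 664 and 975 with the block (with pair 1, 2 or 3 left out, 486, 285 or 554 higher and 751, 549 or 866 lower), 140 and 247 in DESeq2, and 14 to 53 and 56 to 148 with a library left out. HSPA5, not called, changed sign with the block and without replicate 1 (0.04) or replicate 2 (0.02). HSP90B1 (-0.11) did so with the block without replicate 2 (0.01) and without scramble 1, scramble 2 or miR92a 3 (-0.33 to 0.03 with single libraries left out). CANX (0.50) did so in limma-voom (-0.55), with the block (-0.07; -0.39 without replicate 1, -1.58 without replicate 3) and without miR92a 3 (-1.12 to 1.18 with single libraries left out). ERSE with up to 1 mismatch was present for 14 genes, against 7 exactly. At 704448 counts miR92a 1 limits the low genes.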
